A study of Drosophila simulans with 4 samples.

Results

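Adult males of *Drosophila simulans* from Gotheron, an orchard site in the Rhône Valley (France), were compared with males from Mayotte, both reared on cornmeal medium. Of the 4 libraries of the series, 1 from each population was made on this food, so the comparison rests on 2 libraries. It asks how far the transcriptomes of the populations differ when the food is the same. A gene entered the comparison when its mean over both cornmeal libraries reached 20 normalised counts, which kept 10779 of the 15358 listed genes. The remaining 4579 genes were left out as too low.

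Each library was made from whole bodies of 100 males, the offspring of as many different wild-caught females, so the flies were the first generation born in the laboratory, and neither the labels nor the methods name an engineered allele or a treatment. A library thus averages many family backgrounds, and its 4 RNA extracts were pooled before sequencing. The males were kept for 7 days according to the labels, while the methods give a shorter aging period on the parental medium. The other libraries came from males of each population on the local fruit, apple in Gotheron and banana in Mayotte. In that pair the fruit and the population cannot be told apart, and according to the methods bacteria had contaminated the banana medium. It was used only to see which cornmeal differences were also present without the shared food. Labels describe the tissue as whole body and all flies as males. Tissue and sex markers could not be checked, because the files give identifiers without gene names.

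*D. simulans* is a close relative of *D. melanogaster* with an Afrotropical origin, and its European populations are derived. Populations of such a species can differ in transcript levels through inherited regulatory changes and through direct responses to food or microbes, and rearing on a common medium removes part of the second source. Sequencing was of the 3′ ends of cDNA, where each transcript gives tags from its end only. A gene's count therefore follows the number of its transcripts and not its length. In a whole-body sample, fewer cells of a type and less RNA per cell cannot be told apart.

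The depth of the cornmeal libraries was similar. Whole reads recovered from the deposited values totalled 9927634 in Gotheron and 9829895 in Mayotte, and at least 1 read was found for 14257 genes in Gotheron and 14390 in Mayotte. These read totals take the smallest nonzero value of a library as 1 read. They lie well below the usable mapped reads per replicate that the paper reports, and the gap was not examined. The deposited values have the same total in every library. The 10 genes of highest cornmeal mean took 8.15% of that total in Gotheron and 10.7% in Mayotte. With 1 library per population and food there is no replicate spread, so no p-value is given for the cornmeal pair itself. A gene was called when its values differed at least 2-fold after adding 1 to each normalised count and taking log2. Adding 1 makes the change of low genes look smaller than it is.

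On cornmeal, 311 genes were at least 2-fold higher in Gotheron and 194 were at least 2-fold lower. These are 2.89% and 1.8% of the genes tested, and 4.69% for both directions. The log2 difference of Gotheron minus Mayotte had a standard deviation of 0.49 across genes, and its central 95% lay between -0.83 and 1.05. Most genes thus differed little. The median over all genes tested was 0.12, so the bulk of the transcriptome lay slightly above Mayotte in Gotheron at equal totals. After TMM scaling, which sets libraries level on the bulk of genes, this median was -0.0049 and the calls were 217 higher and 243 lower. The share of calls that were higher in Gotheron was 61.6% in the deposited scaling and 47.2% after TMM scaling. The larger number of genes higher in Gotheron was thus not present after TMM scaling. Near the threshold, 98 genes were 2 to 2.2 times higher and 163 were 1.8 to 2 times higher. Likewise 56 genes were 2 to 2.2 times lower and 60 were 1.8 to 2 times lower.

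**Figure D1:**
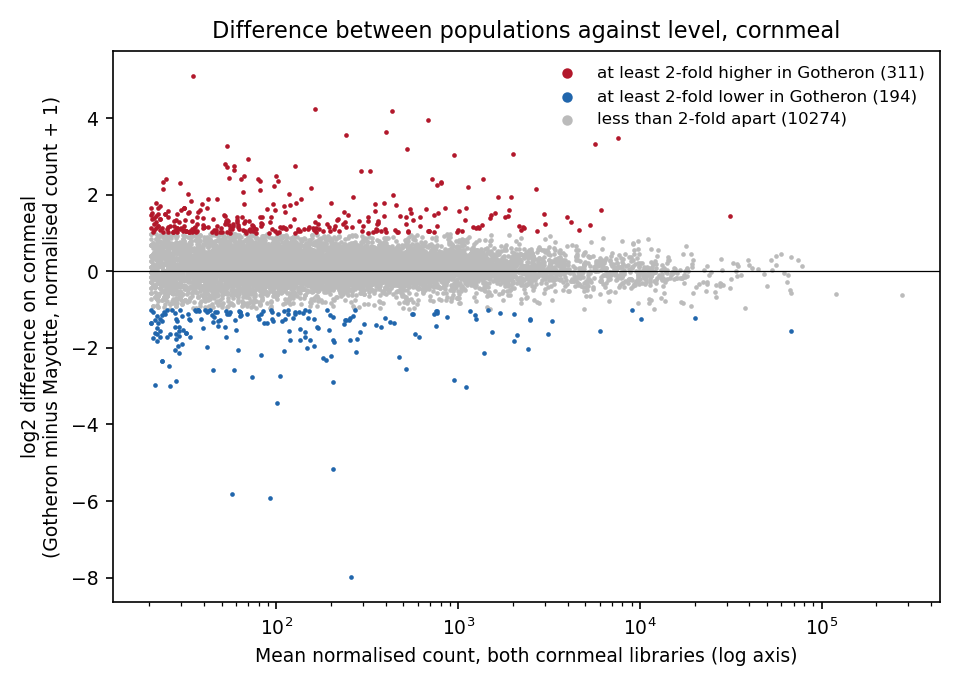
Log2 difference of Gotheron minus Mayotte on cornmeal (vertical axis, on normalised count + 1) against the mean normalised count of both cornmeal libraries (horizontal log axis), with 1 point per gene tested. Red points are the 311 genes at least 2-fold higher in Gotheron, blue points the 194 at least 2-fold lower, and grey points the other 10274; the cloud is widest at low levels and the strongest differences are on the lower side.

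The 2 genes furthest apart in each direction are described here, and 3 of these 4 had almost no reads in 1 population. FBgn0033729 had the largest positive difference with the pseudocount of 1, but not with a pseudocount of 5, where it had 3.62 and FBgn0033696 had 3.95 on the log2 scale. On cornmeal it stood at 68.9 normalised counts in Gotheron and 1.02 in Mayotte, against 110 in Gotheron on apple and 4.85 in Mayotte on banana. Both Gotheron libraries were high and both Mayotte libraries were low. From 68 and 1 reads, the cornmeal ratio of Gotheron over Mayotte was 67.3, with a 95% Clopper-Pearson interval of 11.7 to 2698. This interval covers counting error only. The log2 difference was 5.11 on cornmeal and 4.24 in the natural pair.

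FBgn0033696 was next, and it was detected at a low level in Mayotte. Its normalised count was 309 in Gotheron and 15.3 in Mayotte on cornmeal, and 151 in Gotheron and 17.5 in Mayotte on the fruit media. From 305 and 15 reads, the cornmeal ratio was 20.1 with an interval of 12 to 36.4. The natural-pair ratio was smaller, at 8.68. The Mayotte levels were close to each other and the Gotheron level was lower on apple than on cornmeal.

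FBgn0186294 differed most of all genes tested, and it had almost no reads in Gotheron. On cornmeal it stood at 1.01 normalised counts in Gotheron and 512 in Mayotte, and 1.99 in Gotheron and 338 in Mayotte on the fruit media. This was 1 read against 501 on cornmeal. The ratio of Mayotte over Gotheron was 506 with a counting interval of 90.4 to 20025, and its log2 difference of Gotheron minus Mayotte was -7.99.

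FBgn0039472 had the next largest negative difference, with almost the same values on both foods. Its normalised count was 2.03 in Gotheron and 183 in Mayotte on cornmeal, and 1.99 in Gotheron and 198 in Mayotte on the fruit media. From 2 and 179 reads, the ratio of Mayotte over Gotheron was 90.4 with an interval of 24.7 to 752. The log2 difference was -5.93 on cornmeal and -6.05 in the natural pair. No gene tested was at 0 in either cornmeal library. At most 3 reads were found in Mayotte for 1 gene, FBgn0033729, and in Gotheron for 3 genes, among them FBgn0186294 and FBgn0039472. Whether these genes share reads with similar copies was not analysed here. Whether their reads map less well in 1 population, a possibility the paper discusses and holds to be small, was not tested either.

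**Figure D2:**
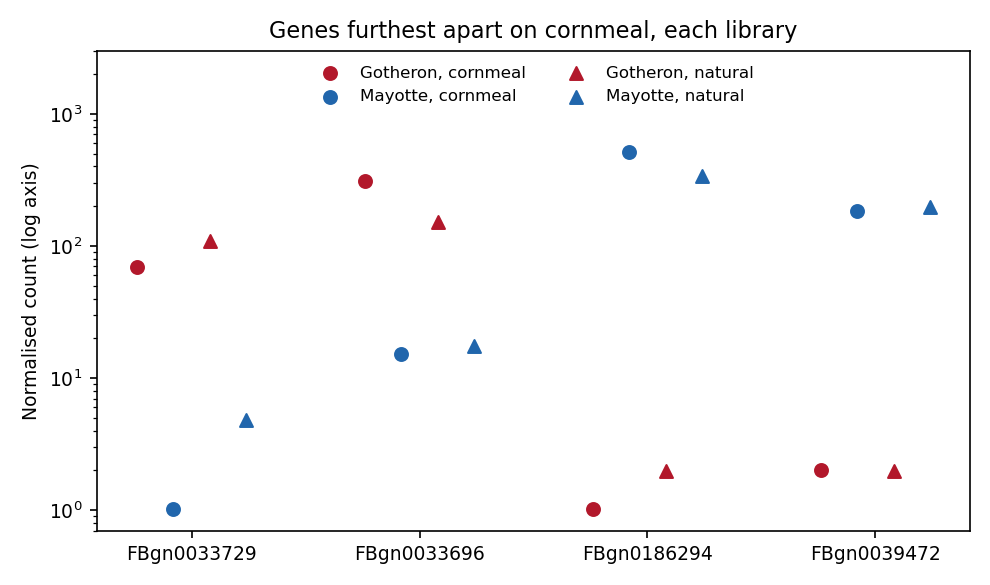
Normalised count (log axis) of the 4 named genes in each library, with red for Gotheron, blue for Mayotte, circles for cornmeal and triangles for natural media. For FBgn0033729 and FBgn0033696 both red points lie above both blue points, and for FBgn0186294 and FBgn0039472 both lie below them, with Gotheron between 1.01 and 2.03.

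Called genes were found from the lowest levels kept up to highly abundant genes. Among the genes higher in Gotheron, the normalised count on cornmeal ran over 28.4 to 45853 with a median of 131 in Gotheron, and over 1.02 to 16729 with a median of 45 in Mayotte. Among the lower genes it ran over 1.01 to 34379 with a median of 45.6 in Gotheron, and over 27.6 to 100534 with a median of 128 in Mayotte. Together the higher genes took 2.44% of all counts in Gotheron and 0.825% in Mayotte on cornmeal. On the fruit media the same genes took 1.97% in Gotheron and 0.975% in Mayotte. The lower genes took 0.902% in Gotheron and 2.44% in Mayotte on cornmeal, and 1.17% in Gotheron and 2.62% in Mayotte on the fruit media. The summed level of each set kept its direction without the shared food. The sets were chosen for being far apart on cornmeal, so a smaller gap on the fruit media could come from that choice. Other sources of the smaller gap were not tested.

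Genes with strong differences at high expression were counted in each direction. At least 4-fold higher in Gotheron, with at least 1000 normalised counts in the higher library, were 12 genes, and 11 of them were also at least 2-fold higher in the natural pair. On the lower side 4 genes reached the same fold and level, and 3 of these were also at least 2-fold lower in the natural pair. Of all genes tested, 2.49% were at least 2-fold higher in the natural pair and 2.87% at least 2-fold lower. The level was asked of the higher library only, and all genes reaching it were not counted. After TMM scaling 12 genes were again higher and 4 lower, with 11 and 3 in the natural pair. Of all genes tested, 1.88% and 3.81% then passed 2-fold in that pair. Above 5000 normalised counts 2 genes were at least 4-fold apart, both higher in Gotheron and both at least 2-fold higher in the natural pair. They lay between 10308 and 13970 normalised counts in Gotheron, and between 1034 and 1240 in Mayotte. Neither is 1 of the genes named above.

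The share of genes called fell with the level. It was 11.1% of the 1529 genes with a mean from 20 to 50 and 5.89% of the 1663 genes from 50 to 100. Above that it was between 2.65% and 4.16% in each of the 4 higher classes of level. The standard deviation of the log2 difference was 0.65 in the lowest class, where counting alone gives 0.37 for a typical gene. From 300 to 1000 it was 0.39, with 0.093 from counting. Above 3000 it was 0.43, with 0.025 from counting. The counting part was thus largest in the lowest class, and the spread between flies, extracts and preparations could not be measured with 1 library. The counting interval of the ratio excluded 1 for all 311 higher and all 194 lower genes. The filter on the mean and the 2-fold call nearly fixed that outcome in advance, so it lends the calls no support. The interval lay wholly beyond 2-fold for 116 of the higher and 77 of the lower genes. Among all genes tested the interval excluded 1 for 4793 (44.5%), so this criterion alone does not single out the called genes.

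The natural pair holds other flies and other libraries, and it did not choose the genes. Of the 311 genes higher in Gotheron on cornmeal, 107 (34.4%) were also at least 2-fold higher in the natural pair, where 2.49% of all genes tested were. Another 152 were higher by less than 2-fold, 47 were lower or equal by less than 2-fold, and 5 were at least 2-fold lower. Of the 194 genes lower in Gotheron on cornmeal, 79 (40.7%) were also at least 2-fold lower in the natural pair, where 2.87% of all genes tested were. A further 71 were lower by less than 2-fold, 42 were higher or equal by less than 2-fold, and 2 were at least 2-fold higher. After TMM scaling, 87 of 217 higher genes (40.1%) and 94 of 243 lower genes (38.7%) passed 2-fold in the same direction in the natural pair. Among all genes tested, 1.88% and 3.81% then did so.

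In sign alone, 259 (83.3%) of the higher genes were also higher in the natural pair, beside 64.8% of all genes tested. Of the lower genes 150 (77.3%) were also lower, beside 35.2% of all genes tested. After TMM scaling these shares were 78.3% and 79.0%, beside 50.4% and 49.6% of all genes tested. The pairs share no library. The natural pair called 5.35% of the genes tested in either direction. In all, 186 genes passed 2-fold in the same direction in both pairs. They made up 36.8% of the genes called on cornmeal and 32.2% of those called in the natural pair. The counting (Clopper-Pearson) 95% interval of the first share was 32.6% to 41.2%, with genes taken as independent, which they are not. Across all 10779 genes, which are not independent replicates either, the differences of the cornmeal and natural pairs had a Pearson r of 0.46 and a Spearman rho of 0.28.

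**Figure D3:**
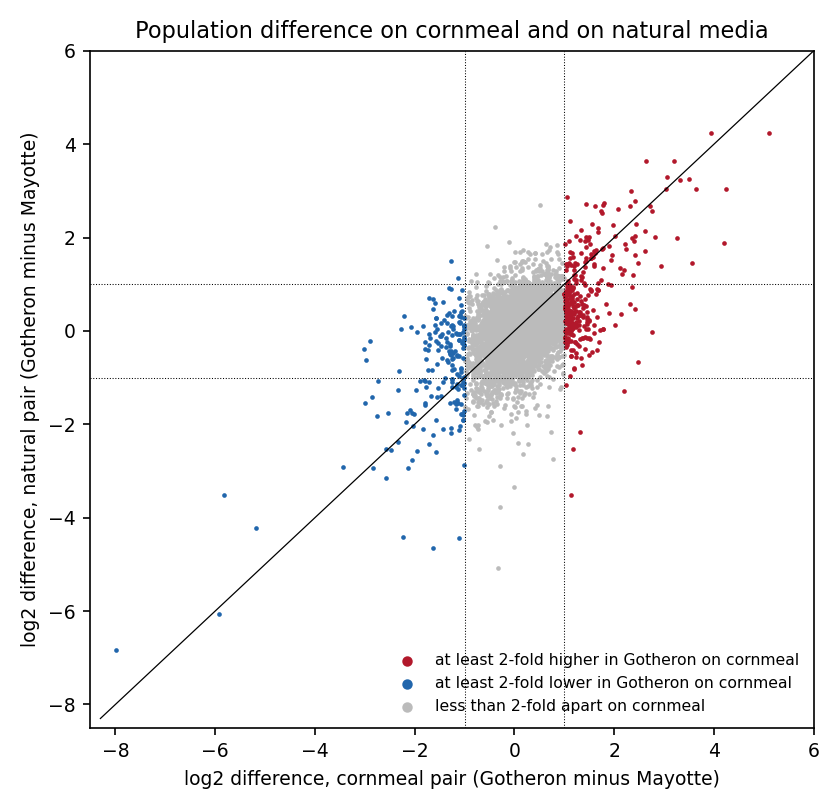
Log2 difference of Gotheron minus Mayotte on cornmeal (horizontal axis) and in the natural pair, apple against banana (vertical axis), with 1 point per gene tested, dotted lines at 2-fold and a solid line of equality. Red and blue points are genes called higher and lower in Gotheron on cornmeal; 107 red points lie above the upper dotted line and 79 blue points below the lower one.

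The larger the difference on cornmeal, the more often it was present without the shared food. Among genes 2 to 3 times higher in Gotheron, 50 of 230 were also at least 2-fold higher in the natural pair. This was 21 of 37 from 3-fold to 4-fold, 24 of 32 from 4-fold to 8-fold and 12 of 12 from 8-fold upwards. Among the lower genes it was 40 of 131 from 2-fold to 3-fold, 14 of 31 from 3-fold to 4-fold, 20 of 26 from 4-fold to 8-fold and 5 of 6 beyond. The exception beyond 8-fold was lower by less than 2-fold in the natural pair. Genes were called on their cornmeal values, so the size on cornmeal is a description only. The median log2 difference of the higher genes was 1.26 on cornmeal and 0.62 in the natural pair, and that of the lower genes was -1.30 and -0.60.

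**Figure D4:**
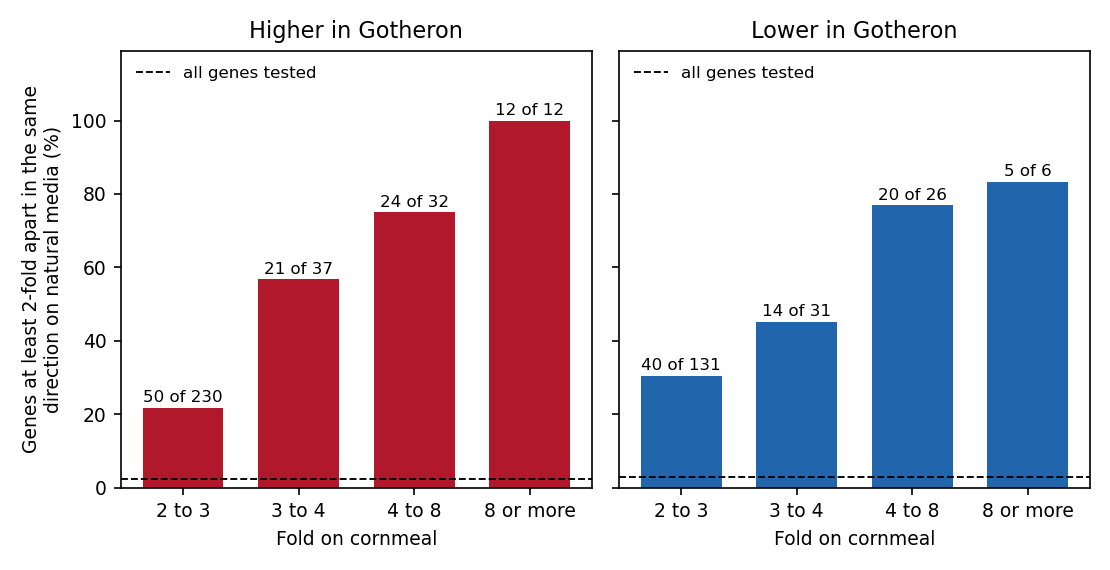
Share of genes called on cornmeal (vertical axis, percent) that were at least 2-fold apart in the same direction in the natural pair, by fold on cornmeal (horizontal axis), for genes higher (left) and lower (right) in Gotheron. Numbers over the bars are genes, and the dashed lines are the shares of all genes tested (2.49% and 2.87%); the share grew in each step on both sides, with 6 genes in the smallest class.

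This share also differed between classes of level, without rising at each step. Of the genes called on cornmeal with a mean from 20 to 50, 42 of 170 (24.7%) passed 2-fold in the same direction in the natural pair. From 50 to 100 it was 36.7%, from 100 to 300 it was 33.6% and from 300 to 1000 it was 52.1%. From 1000 to 3000 it was 26 of 42 genes (61.9%), and above 3000 it was 8 of 15 genes. Of all 1529 genes tested from 20 to 50, 90 were at least 2-fold higher and 67 at least 2-fold lower in the natural pair. These counts were 31 and 35 of 1010 genes from 1000 to 3000, and 7 and 36 of 554 genes above 3000. The 186 genes that passed in both pairs accordingly had higher levels. Their median normalised count on cornmeal was 418 in Gotheron and 82.8 in Mayotte for the 107 higher genes, and 52.7 in Gotheron and 185 in Mayotte for the 79 lower genes.

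The difference between populations on cornmeal was set beside the difference between foods within each population, over the same genes. These were kept by their cornmeal mean alone, so genes low on cornmeal and high on a fruit medium were not counted. In Gotheron 371 genes (3.44%) were at least 2-fold apart between apple and cornmeal, 167 (1.55%) higher and 204 (1.89%) lower on apple. In Mayotte 143 genes (1.33%) were at least 2-fold apart between banana and cornmeal, 87 (0.807%) higher and 56 (0.52%) lower on banana. The log2 difference between foods had a standard deviation of 0.43 across genes in Gotheron and 0.34 in Mayotte, below the 0.49 between populations on cornmeal. These comparisons share libraries with each other, so their values are given side by side only. A library pair from 1 population differs in food, in the families sampled and in preparation, and those sources cannot be told apart.

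**Figure D5:**
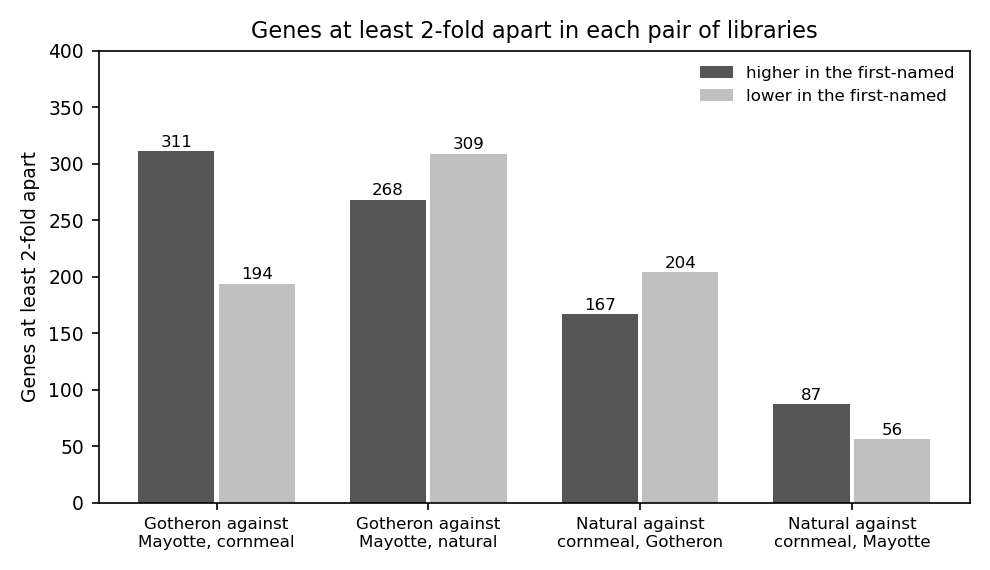
Number of genes at least 2-fold apart (vertical axis) in each pair of libraries, over the 10779 genes tested on cornmeal, with dark bars for genes higher and light bars for genes lower in the group named first. The population pair on cornmeal has 311 and 194, the natural pair 268 and 309, the Gotheron food pair 167 and 204 and the Mayotte food pair 87 and 56.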

How the data were processed

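The authors trimmed reads with seqclean and mapped them with ELAND to the *D. melanogaster* genome. Remaining reads were mapped to the *D. simulans* genome and its genes reassigned to orthologs. The submitters' processing notes name CASAVA. Genome builds and software versions were not given in the sources used here. Per the values, the deposited signal is linear and holds read counts multiplied by 1 factor per library to equal totals. Divided by the smallest nonzero value of the library, 100% of them were whole numbers within 0.01. This held in all 4 libraries. A check that guards against rounded values refuses any factor as close to 1 as that of the Gotheron natural library, so its reads were left out of the read-based results by that rule, and not because its values failed to come out whole.

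Differences were computed in Python 3.11.15 with a pseudocount of 1, and intervals with scipy 1.17.1. A test of the recovered reads with edgeR 4.0.16 (R 4.3.3, quasi-likelihood, adjusted p threshold 0.05) set the Gotheron cornmeal library against both Mayotte libraries, so Gotheron was assumed to vary like Mayotte. The Mayotte libraries in this test were on different foods, so the difference between cornmeal and banana medium served as its replicate spread. The test thus did not hold the food equal. The TMM factors came from edgeR. Both computations were run on simulated data. For the edgeR test the simulated Mayotte libraries had the same expected levels, without a food difference. That simulation therefore cannot show how the test behaves on these data. Alternatives were other scalings, pseudocounts, filters on low values and folds.

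The comparison, its gene lists and the rules were chosen with earlier results of these data known. Of the 15358 identifiers 0 matched a symbol in the reference table of assembly Prin_Dsim_3.1. The lists of gene families and tissue markers, written as symbols, could not be applied, and no sequence is printed. The rule for named genes took those of largest cornmeal difference with the same sign in the natural pair. It allows 2 identifiers a direction where no symbol is known. The authors left immunity genes out of their own tests because bacteria had contaminated the banana medium in Mayotte. Every listed gene was used here, and immunity genes could not be told apart.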

Additional observations from a re-analysis of the deposited data

Results flagged for a closer look

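Some genes were at least 2-fold apart in opposite directions in the cornmeal and natural pairs. With 1 library in each cell, the difference between the pairs was not tested. In 5 genes Gotheron was higher on cornmeal and lower on the natural media, which is 1.61% of the genes called higher on cornmeal, beside 2.87% of all genes tested that were at least 2-fold lower in the natural pair. Their normalised counts ran over 32.4 to 333 in Gotheron and over 15.3 to 147 in Mayotte on cornmeal. They ran over 16.9 to 165 in Gotheron on apple and over 38.8 to 1893 in Mayotte on banana. The highest value was in the Mayotte banana library for 4 of the 5 and in the Gotheron cornmeal library for 1. In 2 genes Gotheron was lower on cornmeal and higher on the natural media, 1.03% of the genes called lower on cornmeal, beside 2.49% of all genes tested that were at least 2-fold higher in the natural pair. Both shares lie below those of all genes. Their counts were 28.4 and 39.5 in Gotheron and 69.5 and 87.9 in Mayotte on cornmeal. They were 9.97 and 125 in Gotheron and 2.91 and 56.2 in Mayotte on the fruit media. The identifiers are not printed because no gene name is paired with them.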

How the results depend on the processing

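The number of genes called followed the filter and the fold. With a mean of at least 5 it was 533 higher and 419 lower in Gotheron, with a mean of at least 100 it was 145 and 92, and with no filter it was 1142 and 1239. At 1.5-fold it was 1155 and 512, and at 3-fold 81 and 63. The edgeR test on 3 libraries, a different question with its own dispersion, called 200 higher and 217 lower, with 877 and 900 at an unadjusted p under 0.05. Median-of-ratios scaling gave 222 and 240, and totals without the 10 most abundant genes gave 284 and 201. Pseudocounts of 0.5 and 5 gave 319 and 262 genes higher and 194 and 160 lower. The share of called genes that also passed in the natural pair was 36.8%. It was 45.6% with a mean of at least 100, 23.1% with no filter, 32.5% when 1.5-fold was asked of both pairs and 49.3% when 3-fold was. The median log2 difference was -0.0049 after TMM scaling, 0.0035 after median-of-ratios scaling, 0.084 without the 10 most abundant genes and 0.085 with no filter. Each of the 4 named genes kept its direction under TMM scaling and both pseudocounts. A pseudocount of 5 moved the log2 difference to 3.62 for FBgn0033729, -6.43 for FBgn0186294 and -4.74 for FBgn0039472. Leaving out a library was not possible, since 1 library stands on each side. A fit with the medium as a block was not run, since the cornmeal difference lies within 1 medium. Medians of gene lists were not run.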

Other observations

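The directions of the calls by level are given here for both kinds of food. Of the 554 genes with a cornmeal mean above 3000 normalised counts, 8 were at least 2-fold higher and 7 at least 2-fold lower in Gotheron on cornmeal. In the natural pair 7 of them were higher and 36 were lower. Over all 10779 genes tested the shares were 2.89% higher and 1.8% lower on cornmeal, and 2.49% and 2.87% in the natural pair. Of the 2753 genes from 300 to 1000, 54 were higher and 19 lower on cornmeal, and 48 were higher and 64 lower in the natural pair. Of the 1010 genes from 1000 to 3000, 28 were higher and 14 lower on cornmeal, and 31 were higher and 35 lower in the natural pair. At lower levels the natural pair had 90 higher and 67 lower of 1529 genes from 20 to 50. It had 47 and 44 of 1663 genes from 50 to 100, and 45 and 63 of 3270 genes from 100 to 300. On cornmeal these were 98 and 72, 68 and 30, and 55 and 52. After TMM scaling the genes above 3000 were 7 higher and 11 lower on cornmeal, and 5 higher and 52 lower in the natural pair. Over all levels TMM scaling gave 217 higher and 243 lower on cornmeal, and 202 higher and 410 lower in the natural pair. With it, the lower genes were the more numerous in the natural pair in each class of level. The difference between the pairs was not tested. In the natural pair fruit and population cannot be told apart, and the methods state that the natural medium of Mayotte was contaminated with bacteria.

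Of the genes called in the natural pair, 107 of 268 higher and 79 of 309 lower ones were also called on cornmeal. Another 126 and 166 had the same sign on cornmeal at less than 2-fold, and 35 and 64 had the opposite sign.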
